A study of Mus musculus with 9 samples.

Results

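Back skin of mice that received imiquimod (IMQ) cream and Longkui Yinxiao soup (LYS), a herbal decoction used for psoriasis, was compared with back skin of mice that received the cream alone. The comparison was chosen by its labels and holds 6 of the 9 libraries of the series, 3 of the IMQ group and 3 of the LYS group. All mice were male BALB/c mice aged 6 to 8 weeks, and the back of every mouse was depilated. The IMQ and LYS groups shared 62.5 mg of a 5% IMQ cream daily for 5 days, and skin was taken on day 13. The LYS group in addition received the soup by gavage at the higher of the study's doses, per the study's methods, while the labels name the soup without a dose. The 3 control libraries, which the labels call blank, were used here only to show what imiquimod alone did to a gene. There was no group with the soup and without imiquimod among these libraries, so the soup was measured only on inflamed skin. Whole skin was sequenced, and fewer cells of a type and less RNA per cell cannot be told apart in such libraries.

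Imiquimod activates Toll-like receptors on dendritic cells, and its cream gives mouse skin a psoriasis-like inflammation carried by interleukin (IL)-23 and IL-17. Keratinocytes answer these cytokines by thickening the epidermis, making stress keratins, alarmins, chemokines and IL-36, and changing how they build the cornified layer. The cornified layer is made when basal keratinocytes, which express Krt5 and Krt14, move up, switch to Krt1 and Krt10, and crosslink precursors such as loricrin and filaggrin under a coat of ceramides and cholesterol. The dermis below holds fibroblasts, vessels, macrophages, mast cells, nerves, fat and a thin muscle sheet.

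The precursors of the cornified layer were among the genes that lay lowest in the LYS libraries, and stretches of their promoters are shown here because members of the AP-1 family of transcription factors are known to act on such promoters. The AP-1 motif TGANTCA, which is its own reverse complement, was searched in the 250 bases before the RefSeq transcription start (GRCm38.p6). It was found in 17 of the 44 precursor genes with a promoter sequence (38.6%), while 7.82% of the promoters of all 27025 genes held it. Many of these genes are near copies of each other, so the 17 are not independent. The stretches below are written 5′ to 3′ on the strand of the gene, with the motif in capitals.
Lor (chr3:92083154-92083220, - strand): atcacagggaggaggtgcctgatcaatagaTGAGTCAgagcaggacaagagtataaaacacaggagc
Flg (chr3:93273413-93273479, + strand): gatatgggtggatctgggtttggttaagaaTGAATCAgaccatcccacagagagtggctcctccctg
Ivl (chr3:92573815-92573881, - strand): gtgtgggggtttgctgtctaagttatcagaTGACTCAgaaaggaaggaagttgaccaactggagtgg
Sprr1b (chr3:92438854-92438920, - strand): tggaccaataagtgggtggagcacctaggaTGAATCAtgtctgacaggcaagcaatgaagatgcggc
Sprr2d (chr3:92338917-92338983, + strand): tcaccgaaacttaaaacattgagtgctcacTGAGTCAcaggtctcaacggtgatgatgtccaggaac
Krtdap (chr7:30787794-30787860, + strand): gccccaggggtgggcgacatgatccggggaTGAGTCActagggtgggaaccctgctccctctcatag
The motif began 48 bases before the start in Lor, 103 in Flg, 116 in Ivl, 111 in Sprr1b, 193 in Sprr2d and 81 in Krtdap. A sterol response motif, TCACNCCAC on either strand, was found in 1 of the 15 cholesterol genes with a promoter sequence, Hmgcs1, and in 1.22% of all promoters. These matches describe letters and not binding.

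The reads counted on genes summed to 16915191 to 17988104 in the IMQ libraries and to 14658645 to 16743869 in the LYS libraries, so the LYS libraries were the shallower. Mitochondrial transcripts took 2.13% to 2.82% of the counts in the IMQ group and 1.93% to 2.15% in the LYS group. The 20 most abundant genes took 12.1% to 14.4% and 8.66% to 10.3%. The part of these differences in the results was not tested. The basal keratinocyte marker Krt14 was at 8489.9, 7406 and 6864 CPM (counts scaled by library size) in IMQ 1, 2 and 3 and at 8535, 5438 and 4902 CPM in LYS 1, 2 and 3, so all libraries held epidermis. In the same order, the imiquimod-induced stress keratin Krt16 was at 5073, 7030.1 and 5019.6 CPM and at 4634, 3258 and 2075 CPM, against 37.6, 24.6 and 72.0 CPM in the control libraries, so every LYS library carried the imiquimod response that its label states. Below, 3 values of a group are always given in the order of libraries 1, 2 and 3, in CPM after TMM scaling.

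The LYS libraries did not stand equally far from the IMQ libraries. Over the 15460 genes tested, LYS 1 lay inside the range of the IMQ libraries for 40.1% of genes, LYS 2 for 25.1% and LYS 3 for 19.4%. The median absolute difference of a gene from the IMQ mean was 0.25 in log2(CPM + 1) for LYS 1, 0.39 for LYS 2 and 0.49 for LYS 3. Each IMQ library was set against the mean of the other IMQ libraries, and the medians were 0.24, 0.17 and 0.18. For 6014 genes all LYS libraries lay on the same side of all IMQ libraries. Among these, LYS 1 was the LYS library nearest the IMQ mean in 75.2%, and IMQ 1 was the IMQ library nearest the LYS mean in 72.5%. The spread within the groups therefore ran largely along the difference between them. Below, LYS 1 and IMQ 1 are named where they decide a value.

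With all 6 libraries, no gene passed the thresholds used in the study, a log2 fold change beyond 0.58 either way at an adjusted p below 0.05 (0 of 15460 genes, 0%, edgeR quasi-likelihood test with Benjamini-Hochberg adjustment). The smallest adjusted p was 0.0591, just above the threshold, and 965 genes shared it. At an unadjusted p under 0.05, 2978 genes were higher in the LYS group (19.3% of those tested) and 2457 were lower (15.9%). Libraries did not overlap for 2598 genes that were higher (16.8%) and 3416 that were lower (22.1%). DESeq2, a second count test, called 1972 genes higher (12.8%) and 1420 lower (9.18%) at the same thresholds. Fitting all 9 libraries together, which adds the control libraries to the estimate of the spread, edgeR called 1627 higher and 1413 lower.

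The 0 of the 6-library fit depended on single libraries. Without LYS 1, 2370 genes were called higher (14.9% of 15895) and 1892 lower (11.9%), and without IMQ 1, 1077 were called higher (6.80% of 15840) and 796 lower (5.03%). Leaving out any other library gave 0. LYS 1 and IMQ 1 were most often the libraries nearest the other group, so leaving either out favours a larger gap between the groups. Counts from these fits are given for lists below to show that dependence and are no separate support. With all 6 libraries, or without any other library, edgeR called 0 genes of each list. No single gene is therefore described as changed by the soup below. Genes and lists are given by their values, by whether the libraries overlapped and by the 95% interval of the log2 fold change, whose median width was 1.07. An interval that lies within 0.58 of 0 was found for 3703 genes (24% of those tested), and for these a larger difference lay outside the interval. Imiquimod alone, against the control group, raised 3854 genes (24.1% of 15976) and lowered 4291 (26.9%), and scaling by library totals only gave 2390 and 6854. The IMQ libraries stand in both comparisons, so values of both are given side by side and no overlap or correlation between them was computed.

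**Figure D1:**
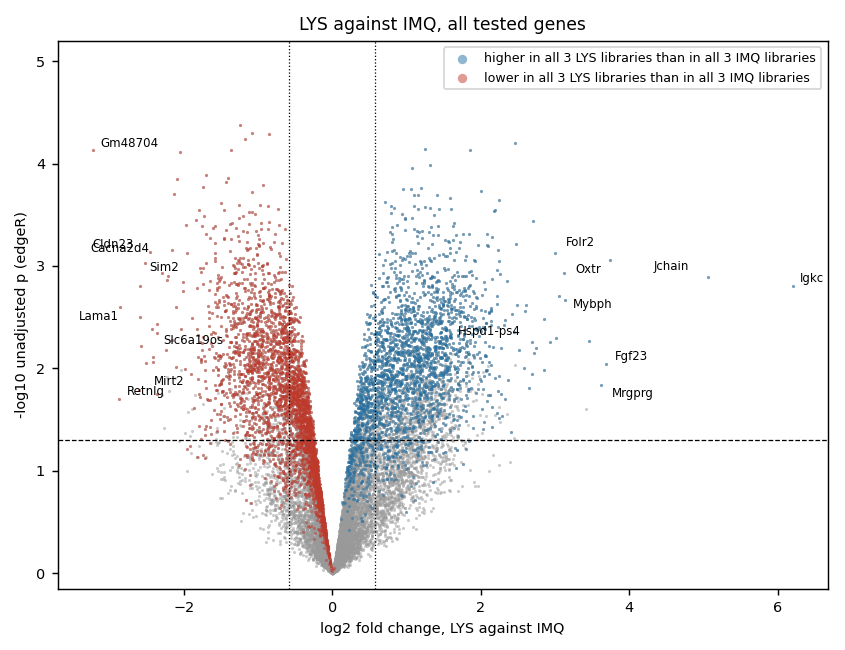
Each point is 1 of the 15460 tested genes, with the log2 fold change of LYS against IMQ on the x axis and -log10 of the unadjusted p (edgeR) on the y axis. Blue and red points are genes whose libraries do not overlap, dotted lines mark a log2 fold change of 0.58 either way and the dashed line an unadjusted p of 0.05. Igkc and Jchain lie farthest to the right and Gm48704 farthest to the left, and no point passed the adjusted threshold.

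Among genes with a mean of at least 1 CPM and no overlap, 8 with the highest and 8 with the lowest log2 fold change are named here. Igkc (ENSMUSG00000076609, chr6:70726435-70726966 on GRCm38), the constant part of the antibody kappa light chain, was at 0.182, 0.373 and 1.10 CPM in the IMQ libraries and at 2.93, 60.9 and 49.6 CPM in the LYS libraries. LYS 1 stood well below the other LYS libraries, and the log2 fold change of 6.20 had a 95% interval of 3.26 to 9.14. The control libraries were at 8.12, 8.00 and 7.90 CPM. Jchain, which joins antibody units into polymers, followed with 0.730, 0.596 and 0.293 CPM in IMQ and 2.24, 27.8 and 22.4 CPM in LYS libraries (log2 fold change 5.06, interval 2.74 to 7.38). Both are products of plasma cells. Next came Fgf23, a phosphate hormone (3.68), Mrgprg, a receptor of the Mas-related family (3.62), Oxtr, the oxytocin receptor (3.12), Mybph, a muscle protein (3.05), the macrophage folate receptor Folr2 (3.003) and the pseudogene Hspd1-ps4 (2.86), whose reads can come from its parent gene. Fgf23 was highest in LYS 1, at 5.10, 1.19 and 0.976 CPM in the LYS libraries, while Mrgprg was highest in LYS 3, at 1.68, 2.94 and 16.2 CPM. In neither gene did an IMQ library exceed 1.2 CPM. Except for Mybph, the 8 higher genes averaged 0.19 to 0.61 CPM in the IMQ group. They reached the mean of 1 CPM only through the LYS libraries, and their fold changes start near the limit of detection. Oxtr was at 0.669, 0.298 and 0.367 CPM in the IMQ libraries, 1.61, 4.07 and 5.68 CPM in the LYS libraries and 15.7, 16.6 and 8.78 CPM in the control libraries, so it stayed below control in every LYS library.

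On the lower side, the gene model Gm48704 (ENSMUSG00000114337, chr13:35543902-35545484) was at 28.7, 36.1 and 64.7 CPM and 5.59, 2.77 and 4.88 CPM (log2 fold change -3.23, interval -4.16 to -2.30). Its groups lay far apart, and imiquimod had raised it from 1.79, 1.39 and 1.46 CPM. Retnlg, a resistin-like gene of neutrophils, was at 18.8, 214 and 26.0 CPM in IMQ and 8.87, 17.1 and 7.52 CPM in LYS libraries (-2.87, interval -5.13 to -0.61), and IMQ 2 alone carried most of the IMQ mean. The transcription factor gene Sim2 (-2.59), the laminin chain Lama1 (-2.59), the calcium channel subunit Cacna2d4 (-2.53), the noncoding RNA Mirt2 (-2.51), the tight junction protein Cldn23 (-2.45) and the antisense transcript Slc6a19os (-2.43) completed the list. Sim2, Lama1, Mirt2 and Slc6a19os averaged 3.53, 1.93, 3.84 and 1.87 CPM in the IMQ group. Their LYS means were 0.55, 0.29, 0.65 and 0.33 CPM, so they reached the mean of 1 CPM only through the IMQ libraries. Cldn23 was at 10.8, 17.1 and 18.6 CPM in the IMQ group and at 4.68, 1.75 and 1.78 CPM in the LYS group. All LYS libraries lay below the control libraries as well, which were at 4.98 to 9.02 CPM. Sources used here do not state that counting used the strand, so reads of Slc6a19os and of the gene opposite to it cannot be told apart.

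Gene lists group genes by function or cell type. Imiquimod alone had moved some lists mainly 1 way. In others, such as macrophages and dendritic cells, chemokines and Rap regulators, it had raised some genes and lowered others. A list's level in a library was taken as the median over its tested genes of log2(CPM + 1) minus the mean of the IMQ libraries. Of the 27 lists, 6 lay lower in all LYS libraries than in all IMQ libraries, 8 lay higher and 13 overlapped. LYS 1 was the LYS library nearest the IMQ mean in 22 lists. The lists that lay lower were those of cornified envelope precursors, ceramide and barrier enzymes, cholesterol synthesis, the IL-1, IL-36 and IL-20 families, alarmins, and the core kinases of the MAPK cascade, whose median turned to 0.10 without TMM scaling. Those that lay higher were dermal matrix, endothelium, macrophages and dendritic cells, mast cells, B and plasma cells, T cells, chemokines and Rap regulators.

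**Figure D2:**
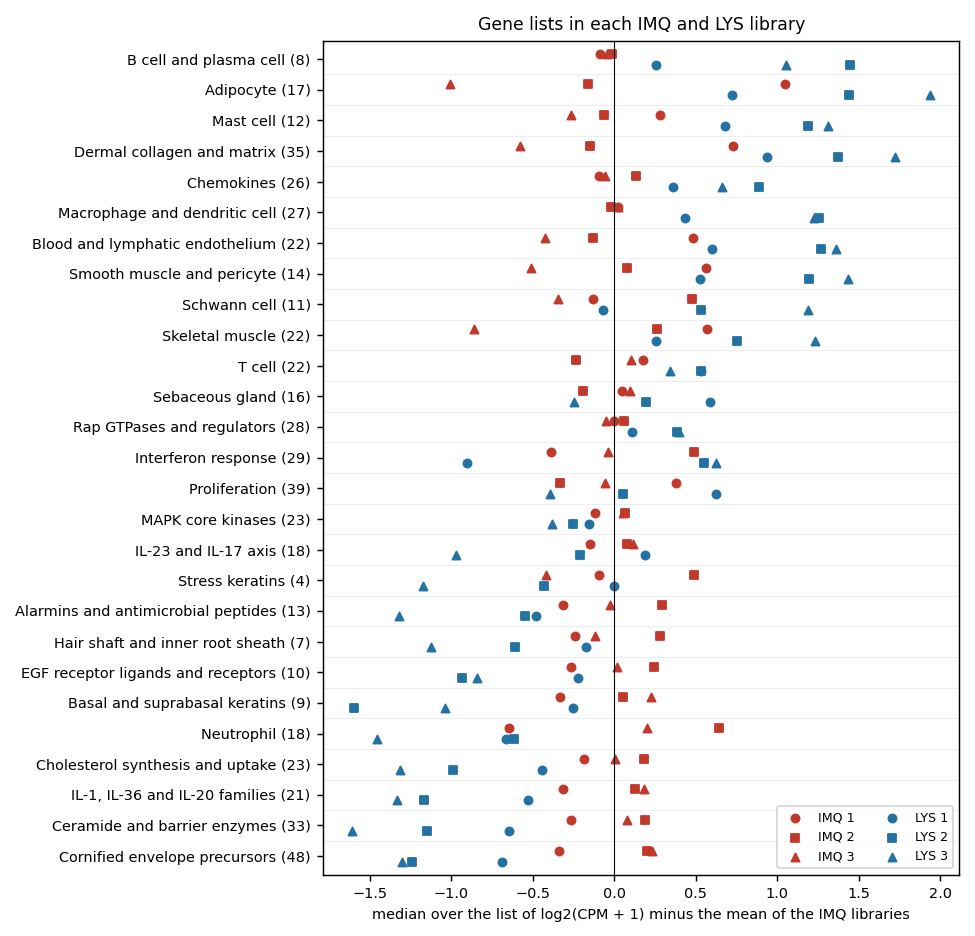
Levels of the 27 gene lists in each IMQ library (red) and LYS library (blue), as the median over the list of log2(CPM + 1) minus the mean of the IMQ libraries; the number of tested genes stands in parentheses and the symbols mark libraries 1, 2 and 3. Epidermal barrier lists sit at the bottom with LYS libraries to the left, lists of dermal cells sit at the top with LYS libraries to the right, and LYS 1 (blue circles) mostly lies nearest the IMQ libraries.

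The list of ceramide and barrier enzymes had, of all 27 lists, the highest share of genes without overlap. Besides lipid enzymes it holds others, among them the protease gene Casp14. Of 33 tested genes, 32 were lower in the LYS group, each without overlap, where 22.1% of all tested genes were. The median log2 fold change was -1.07, beside 0.036 over all tested genes. The list stood at -0.65, -1.15 and -1.61 in the LYS libraries. DESeq2 called 30 lower (9.18% over all genes). edgeR called 31 lower without LYS 1 (11.9% over all genes) and 19 without IMQ 1 (5.03% over all genes). Imiquimod alone had raised 32 of the 33, with a median of 2.81.

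Abca12, which loads lipids into the lamellar bodies of keratinocytes, was at 925, 1184 and 1112 CPM in the IMQ libraries and at 620.2, 477 and 308 CPM in the LYS libraries. The groups did not overlap, LYS 3 was the lowest, and the log2 fold change was -1.14 (interval -1.75 to -0.52). All LYS libraries stayed above the control libraries, which were at 60.8 to 122 CPM. Casp14, the protease that matures filaggrin, had the lowest log2 fold change of the list (-1.53, interval -2.23 to -0.82), with 2341, 2832 and 3431 CPM and 1362, 767 and 739 CPM. Elovl4, which makes very long fatty acids for ceramides, was at 1372, 1857 and 1814 CPM in IMQ and 1079, 756 and 549 CPM in LYS libraries (-1.02), and LYS 3 lay within the control range of 537 to 791 CPM. The lipoxygenase gene Alox12b (-0.87, interval -1.67 to -0.07) and the crosslinking transglutaminase Tgm1 (-0.96, interval -1.80 to -0.13) had LYS 1 just below the lowest IMQ library, at 219 against 242 CPM and at 342 against 359 CPM. The exception was Fa2h, a fatty acid hydroxylase that skin glands also use. It was at 12.0, 2.76 and 13.2 CPM in IMQ and 61.8, 8.65 and 10.7 CPM in LYS libraries, and its mean difference of 1.57 (interval -0.48 to 3.61) rested on LYS 1.

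Precursors of the cornified envelope also lay lower. Of 48 tested genes, 47 were lower and 31 lower without overlap, beside 22.1% of all genes. The median was -1.09, and DESeq2 called 35 lower (9.18% over all genes). edgeR called 25 lower without LYS 1 (11.9% over all genes) and 23 without IMQ 1 (5.03% over all genes). Imiquimod alone had raised 43 of 47, with a median of 3.67. Reads of the Sprr2, Lce1 and Lce3 genes can be shared between near-identical copies, so single members are less certain than the group.

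Hrnr, which encodes the filaggrin relative hornerin, had the lowest log2 fold change among the precursors (-1.83, interval -2.70 to -0.95), with 727, 1282 and 1429.7 CPM in the IMQ libraries and 431, 187 and 309 CPM in the LYS libraries. LYS 2 was the lowest and lay inside the control range of 148 to 249.7 CPM. Lor, the main envelope protein, was at 3354, 7423 and 9506 CPM in IMQ and 2772, 819 and 1950.1 CPM in LYS libraries (-1.81, interval -3.10 to -0.52). The IMQ libraries spread widely, with IMQ 1 only a little above LYS 1. Flg, the source of filaggrin, was at 1755, 2824 and 3553 CPM in IMQ and 1217, 399 and 698 CPM in LYS libraries (-1.75, interval -2.81 to -0.698), in the same order of libraries as Lor. The early precursor Ivl was at 427, 634 and 774 CPM in IMQ and 339, 273 and 309 CPM in LYS libraries (-0.93, interval -1.48 to -0.38), with LYS libraries close to each other.

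The small proline-rich genes that imiquimod raises from near 0 lay lower but far above control. Sprr2d was at 3905, 6209 and 4689 CPM in the IMQ libraries and 2845, 2717 and 834 CPM in the LYS libraries, against 4.26, 4.35 and 12.0 CPM in control. LYS 3 stood apart below the other LYS libraries (-1.15, interval -2.25 to -0.06). Sprr1b (-0.69, interval -1.14 to -0.24) and the late envelope gene Lce3c (-0.76, interval -1.29 to -0.24) also had no overlap, with Lce3c at 398, 576 and 523 CPM in IMQ and 332, 308 and 204 CPM in LYS libraries. Sprr3 was the single precursor with a higher mean (0.42, interval -0.68 to 1.53), at 0.768, 0.679 and 1.32 CPM in the LYS libraries, near the limit of detection.

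Krt1 and Krt10 lay lower without overlap, while Krt5 and Krt14 overlapped. Of the 9 tested keratins of basal and suprabasal cells, 7 were lower and 5 lower without overlap, beside 22.1% of all genes (median -0.75). The 5 were Krt1, Krt10, Krt78, Krt80 and the basal Krt15. The suprabasal Krt77 overlapped and had a higher mean. DESeq2 called 4 lower (9.18% over all genes). edgeR called 6 lower without LYS 1 (11.9% over all genes), with a list median of -1.63. Without IMQ 1 it called 2 lower (5.03% over all genes), with a list median of -0.75. The suprabasal Krt10 was at 7946, 14241 and 14635 CPM and 5004, 2959.5 and 3494 CPM, a log2 fold change of -1.62 (interval -2.48 to -0.76). Its partner Krt1 was at 14785, 19563 and 22462 CPM in IMQ and 10160.1, 4818 and 5034 CPM in LYS libraries (-1.45, interval -2.40 to -0.49). For both, LYS 1 was the highest LYS library and IMQ 1 the lowest IMQ library, and still they did not meet. The basal Krt5 was at 3153, 2454 and 2889 CPM in IMQ and 3518, 1899 and 1723 CPM in LYS libraries, and LYS 1 exceeded every IMQ library. Its log2 fold change of -0.19 (interval -0.93 to 0.54) and that of Krt14, -0.21 (interval -0.92 to 0.500), spanned 0, and both turned positive, below 0.04, without TMM scaling. Whether Krt1 and Krt10 differed in this from Krt5 and Krt14 was not tested. Krt79, a keratin of follicle ducts, had the highest value of the list (1.46, interval -0.75 to 3.66), and its 554 CPM in LYS 1 stood against 52.8 and 47.0 CPM in the other LYS libraries.

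Genes of cholesterol synthesis and uptake lay lower as a group. Of 23 tested genes, 22 were lower and 21 lower without overlap, beside 22.1% of all genes, with a median of -0.85. DESeq2 called 19 lower (9.18% over all genes). edgeR called 21 lower without LYS 1 (11.9% over all genes) and 5 without IMQ 1 (5.03% over all genes). Imiquimod alone had raised 21 (median 1.45). Sqle, which makes the first oxygenated sterol precursor, was at 433, 569 and 526 CPM in IMQ and 334, 221 and 152 CPM in LYS libraries (-1.05, interval -1.71 to -0.40). Hsd17b7 had the lowest value (-1.30, interval -1.80 to -0.81), at 185, 221 and 228 CPM in IMQ and 108, 77.9 and 61.0 CPM in LYS libraries, with no LYS library near an IMQ library.

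**Figure D3:**
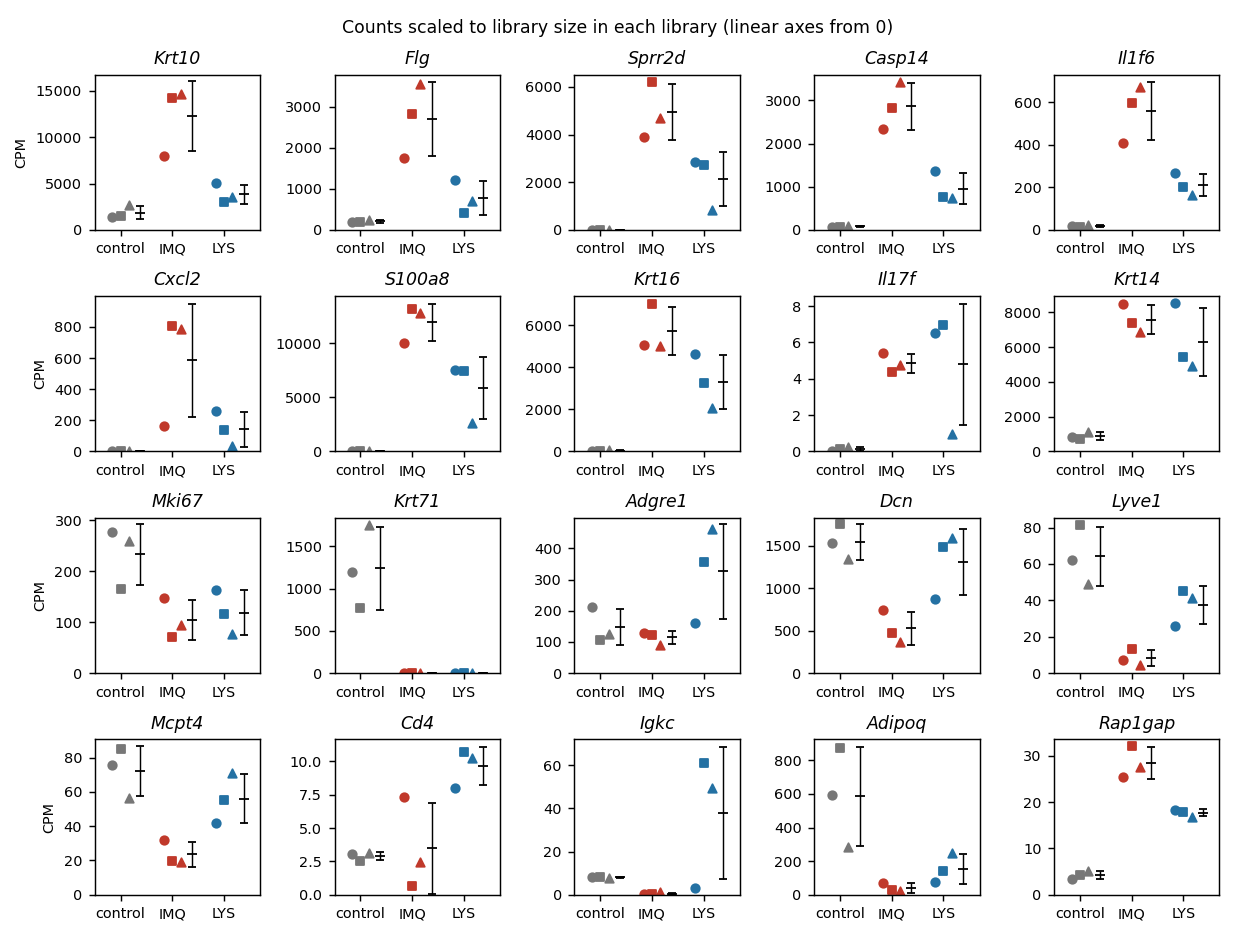
CPM after TMM scaling of 20 genes in the 3 control (grey), IMQ (red) and LYS (blue) libraries, on linear axes from 0; circles, squares and triangles are libraries 1, 2 and 3, and the bar beside each group is the mean ± SD (n = 3). Krt10, Casp14, Il1f6 and Rap1gap have all LYS points below all IMQ points, Adgre1, Dcn, Lyve1 and Mcpt4 have them above, and Krt14, Il17f and Mki67 overlap.

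Keratinocyte cytokines of the IL-1, IL-36 and IL-20 families lay lower on the whole. Of 21 tested ligands, antagonists and receptors, 13 were lower without overlap and 2 higher, beside 22.1% and 16.8% of all genes, with a median of -1.01. DESeq2 called 12 lower and 2 higher (9.18% and 12.8% over all genes). edgeR called the same numbers without LYS 1 (11.9% and 14.9% over all genes). Without IMQ 1 it called 7 lower and 2 higher (5.03% and 6.80% over all genes). Imiquimod alone had raised 17 of 20. Il1f6, which encodes IL-36 alpha, was at 407, 599 and 673 CPM in IMQ and 269, 199.8 and 165 CPM in LYS libraries (-1.34, interval -1.93 to -0.76). All LYS libraries lay between the IMQ libraries and the control libraries, which were at 13.1 to 20.6 CPM. Il1f9 (IL-36 gamma) was at 528, 819 and 792 CPM in IMQ and 449, 305 and 182 CPM in LYS libraries (-1.13, interval -1.92 to -0.35). The antagonist of the same receptor, Il1f5, had the lowest value of the list, at 1407, 1991 and 2233 CPM in IMQ and 848, 450.1 and 419 CPM in LYS libraries (-1.66, interval -2.42 to -0.89), so ligands and antagonist lay lower together. Il1b, which myeloid cells release, was at 355, 1344 and 1541 CPM in IMQ and 707, 308 and 108 CPM in LYS libraries, and LYS 1 exceeded IMQ 1 (-1.48, interval -3.23 to 0.28). Il1rl1, the IL-33 receptor of mast cells and other immune cells, was the highest of the list, at 4.56, 2.01 and 2.05 CPM in IMQ and 5.31, 9.503 and 11.2 CPM in LYS libraries (1.65, interval 0.61 to 2.69), and imiquimod had lowered it from 9.09, 8.84 and 6.24 CPM (log2 fold change -1.47, edgeR adjusted p = 0.00750).

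Alarmins lay lower with fewer genes clear of overlap. Of 13 tested genes, 12 had a lower mean and 5 were lower without overlap, beside 22.1% of all genes. S100a8, a subunit of calprotectin, was at 9989, 13112 and 12740.0 CPM and 7566, 7466 and 2604 CPM (-0.97, interval -2.001 to 0.07). LYS 3 was far below LYS 1 and LYS 2, and the interval reached past 0. S100a9 behaved alike, at 10959.7, 15122 and 15356 CPM in IMQ and 9419, 8504 and 3088 CPM in LYS libraries (-0.92, interval -1.99 to 0.14). Chil1, a chitinase-like protein, was the lowest of the list (-1.64, interval -3.09 to -0.19), while Lcn2, an iron-withholding lipocalin, overlapped throughout at 202, 501 and 191 CPM in IMQ and 338, 409 and 163 CPM in LYS libraries (0.09, interval -0.99 to 1.18). The beta-defensin Defb4, listed at 0 in the control libraries, was at 1.64, 2.16 and 1.69 CPM in IMQ and 1.40, 2.09 and 0.459 CPM in LYS libraries (-0.41, interval -1.63 to 0.81). DESeq2 called 2 members lower (9.18% over all genes).

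The stress keratins of psoriatic epidermis overlapped between the groups, except for Krt16. Krt6a was at 1408, 1995 and 917 CPM in the IMQ libraries and 1524, 1166 and 809 CPM in the LYS libraries (-0.24, interval -1.04 to 0.55). Krt6b was at 4988, 6930.2 and 3927 CPM in IMQ and 4603, 3619 and 2731 CPM in LYS libraries (-0.47, interval -1.204 to 0.26). Krt17 had its highest value of the 6 libraries in LYS 1 and its lowest in LYS 3, at 3294, 1504 and 612 CPM (-0.12, interval -1.49 to 1.24). Only Krt16 was lower in every LYS library (-0.72, interval -1.52 to 0.08). That is 1 of 4 lower without overlap, beside 22.1% of all genes. DESeq2 called none of the 4, beside 12.8% higher and 9.18% lower over all genes. Without LYS 1 edgeR also called none, beside 14.9% and 11.9% of all genes. All 4 had been raised by imiquimod, with a median log2 fold change of 6.59.

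The cytokines of the IL-23 and IL-17 axis overlapped between the groups. Of 18 tested genes, 8 had a higher mean, 10 a lower mean and 3 were lower without overlap (beside 22.1% of all genes). The last were the receptor chains Il17rc and Il17re and the IL-17 adaptor Traf3ip2. DESeq2 called 0 higher and 2 lower (12.8% and 9.18% over all genes). edgeR called 0 higher and 4 lower without LYS 1 (14.9% and 11.9% over all genes). Without IMQ 1 it called 0 higher and 1 lower (6.80% and 5.03% over all genes). The median of -0.25 turned to 0.012 without TMM scaling and to 0.006 on log2(FPKM + 1). Imiquimod alone had raised 15 of 17. Il17a was at 1.95, 2.01 and 2.79 CPM in the IMQ libraries and 6.22, 3.17 and 0.230 CPM in the LYS libraries. LYS 1 was the highest of all libraries and LYS 3 the lowest of the treated ones, with a log2 fold change of 0.55 (interval -1.47 to 2.57). Il17f had 5.41, 4.40 and 4.77 CPM in IMQ and 6.496, 6.96 and 0.976 CPM in LYS libraries, and again only LYS 3 was low (0.03, interval -1.41 to 1.48). For Il17a the sign of the difference turned with limma-voom, and for Il17f with several settings. Il23a, the IL-23 subunit, was at 1.95, 8.87 and 6.53 CPM in IMQ and 6.85, 1.75 and 0.230 CPM in LYS libraries (-0.94, interval -3.25 to 1.38). Ccl20, which draws IL-17-producing cells, was at 1.52, 4.47 and 3.23 CPM in IMQ and 5.24, 0.962 and 0.517 CPM in LYS libraries (-0.42). The receptor Il23r had the highest value of the list (0.66, interval -0.17 to 1.49), and Tnf was at 5.53, 16.8 and 15.7 CPM in IMQ and 6.57, 6.73 and 5.57 CPM in LYS libraries (-0.94, interval -1.88 to 0.002). In Il23a and Ccl20 the LYS libraries ran from LYS 1, inside or above the IMQ range, down to LYS 3. The intervals leave room for differences of more than 2-fold either way in Il17a and Il17f.

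Neutrophil genes were mixed. Of 18 tested genes, 15 had a lower mean and 4 were lower without overlap, a share close to the 22.1% of all genes (median -0.84). These were Retnlg and 3 stefin A genes, Stfa1, Stfa2 and Stfa3, which share sequence and which keratinocytes also express. The neutrophil marker Ly6g and the granule genes Mpo and Elane had too few counts to be tested. The chemokine receptor Cxcr2 was at 77.3, 130.3 and 126 CPM in IMQ and 109.6, 62.3 and 31.8 CPM in LYS libraries (-0.65, interval -1.64 to 0.33), and the collagenase Mmp8 was at 11.6, 43.0 and 7.99 CPM in IMQ and 7.96, 17.5 and 7.63 CPM in LYS libraries (-0.84, interval -2.38 to 0.71). Csf3r, the receptor for the granulocyte growth factor, had a higher mean, at 76.3, 108 and 90.8 CPM in IMQ and 219, 182 and 98.9 CPM in LYS libraries (0.92, interval 0.26 to 1.58), with LYS 3 inside the IMQ range. Ltf was the highest of the list (1.79, interval -0.03 to 3.61), at 0.304, 0.522 and 0.733 CPM in IMQ and 0.699, 0.792 and 3.56 CPM in LYS libraries.

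Chemokines differed in both directions. Of 26 tested, 16 had a higher and 10 a lower mean (median 1.197). Without overlap, 12 were higher and 1 lower, beside 16.8% and 22.1% of all genes. DESeq2 called 12 higher and 3 lower (12.8% and 9.18% over all genes). Against control, imiquimod alone had raised 8 and lowered 9 of 25 chemokines (median -0.30). Those higher without overlap, named after their values were seen, were Pf4, Cxcl9, Cxcl12, Cxcl13, Cxcl14, Ccl2, Ccl5, Ccl7, Ccl8, Ccl9, Ccl11 and Ccl12. Cxcl2, which draws neutrophils, was at 165, 806 and 787 CPM in the IMQ libraries and 258, 136 and 33.6 CPM in the LYS libraries (-1.99, interval -3.89 to -0.08). IMQ 1 lay among the LYS libraries, and the control libraries were at 0.0463 to 0.290 CPM. Ccl3, a macrophage inflammatory protein, had the lowest value (-2.22, interval -3.79 to -0.66) with IMQ 1 likewise among the LYS libraries, at 24.6, 142 and 137 CPM in IMQ and 32.3, 18.7 and 11.5 CPM in LYS libraries. Cxcl1 was at 2.98, 4.92 and 6.31 CPM in IMQ and 6.57, 2.72 and 2.41 CPM in LYS libraries (-0.23, 0.027 without TMM scaling), and Cxcl5 had the highest mean difference (2.11, interval -0.52 to 4.74) at 14.7, 6.39 and 1.49 CPM in the LYS libraries. The interferon-induced Cxcl10 had its lowest value of the 6 libraries, 0.838 CPM, in LYS 1 and its highest, 2.18 CPM, in LYS 3, and its sign turned with scaling (-0.11, 0.15 without TMM scaling).

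Of 29 interferon-stimulated genes tested, 0 were higher and 0 lower without overlap, beside 16.8% and 22.1% of all genes (median 0.28). Their list level was -0.39, 0.49 and -0.04 in the IMQ libraries and -0.91, 0.55 and 0.62 in the LYS libraries, so LYS 1 lay below and the others above all IMQ libraries. Irf7, the main regulator of interferon genes, was at 14.8, 41.4 and 29.99 CPM in IMQ and 4.82, 43.7 and 69.3 CPM in LYS libraries (0.54, interval -1.37 to 2.46). Isg15, a ubiquitin-like protein, had the lowest value, at 9.06, 47.8 and 53.0 CPM in IMQ and 10.1, 12.2 and 6.66 CPM in LYS libraries (-1.85, interval -3.28 to -0.42), and IMQ 1 lay within the LYS range. Ifit1 (0.07, interval -1.49 to 1.63) and Rsad2 (-0.03, interval -1.195 to 1.13), both antiviral effectors, spanned 0, and Rsad2 was positive (0.26) without TMM scaling. Bst2 was the highest (1.16, interval 0.10 to 2.23). edgeR called 10 higher and 0 lower without LYS 1, beside 14.9% and 11.9% of all genes. Without IMQ 1 it called 0 higher and 1 lower, beside 6.80% and 5.03% of all genes. DESeq2 called 0 higher and 1 lower, beside 12.8% and 9.18% of all genes. Imiquimod alone had raised 2 and lowered 13 of 29 (median -0.69).

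Cell cycle genes mostly overlapped. Of 39 tested genes, 35 had a higher mean. Without overlap, 1 was higher and 1 lower, below the shares of 16.8% and 22.1% over all genes. DESeq2 called 1 higher and 0 lower (12.8% and 9.18% over all genes). The median of 0.18 turned to -0.11 without LYS 1 and was 0.43 without IMQ 1. Mki67, the Ki67 gene, was at 148, 70.8 and 93.5 CPM in the IMQ libraries and 164, 116 and 76.4 CPM in the LYS libraries (0.24, interval -0.57 to 1.06). The control libraries were at 276, 165 and 259 CPM, and the lowest of them lay level with LYS 1. Pcna, the sliding clamp of DNA replication, was at 81.8, 73.7 and 69.6 CPM in IMQ and 96.5, 70.1 and 78.0 CPM in LYS libraries, and its interval of -0.16 to 0.52 around 0.18 lay within 0.58 of 0. Top2a (0.19, interval -0.64 to 1.02) and Cdk1 (0.27, interval -0.52 to 1.06), which act in mitosis, differed by less than their spread. The members without overlap were the cell cycle transcription factors E2f1, at 10.8, 9.62 and 9.82 CPM in IMQ and 20.2, 15.7 and 18.4 CPM in LYS libraries (0.91, interval 0.52 to 1.29), and E2f8, at 33.4, 26.5 and 29.9 CPM in IMQ and 25.9, 20.9 and 14.2 CPM in LYS libraries (-0.501, interval -1.02 to 0.02). For E2f8 the interval spanned 0, and LYS 1 lay just below IMQ 2. Imiquimod alone had lowered 31 of 39 (median -0.96). The control libraries also held high levels of hair genes, and the part of that in the cell cycle list was not tested.

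Most hair keratins were near 0 in all IMQ and LYS libraries. Krt71, a keratin of the inner root sheath, was at 1196, 774 and 1749 CPM in the control libraries, 0.0608, 0.373 and 0 CPM in the IMQ libraries and 0.140, 0.0566 and 0.0574 CPM in the LYS libraries. Krt25 (993, 605 and 1200.0 CPM in control) was at most 0.122 CPM in any IMQ or LYS library, and Krt35, of the hair cortex (140.0, 95.4 and 206 CPM), was at most 0.0574 CPM. Of 28 genes of the list in the table, 21 had too few counts in the IMQ and LYS libraries to be tested, so differences between these groups could not be seen at this depth. Imiquimod alone had lowered 25 of 28 and raised 2, Krt84 and the transcription factor gene Foxn1. Tchh and Foxn1 were the most abundant in the IMQ and LYS libraries, at 28.8, 32.9 and 27.1 CPM in IMQ and 24.5, 29.2 and 9.41 CPM in LYS libraries for Tchh. Among the 7 tested members none was higher or lower without overlap, beside 16.8% and 22.1% of all genes. They ran from Krt84 (-1.10, interval -2.07 to -0.13) to the Wnt effector Lef1 (0.52, interval -0.78 to 1.82).

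**Figure D4:**
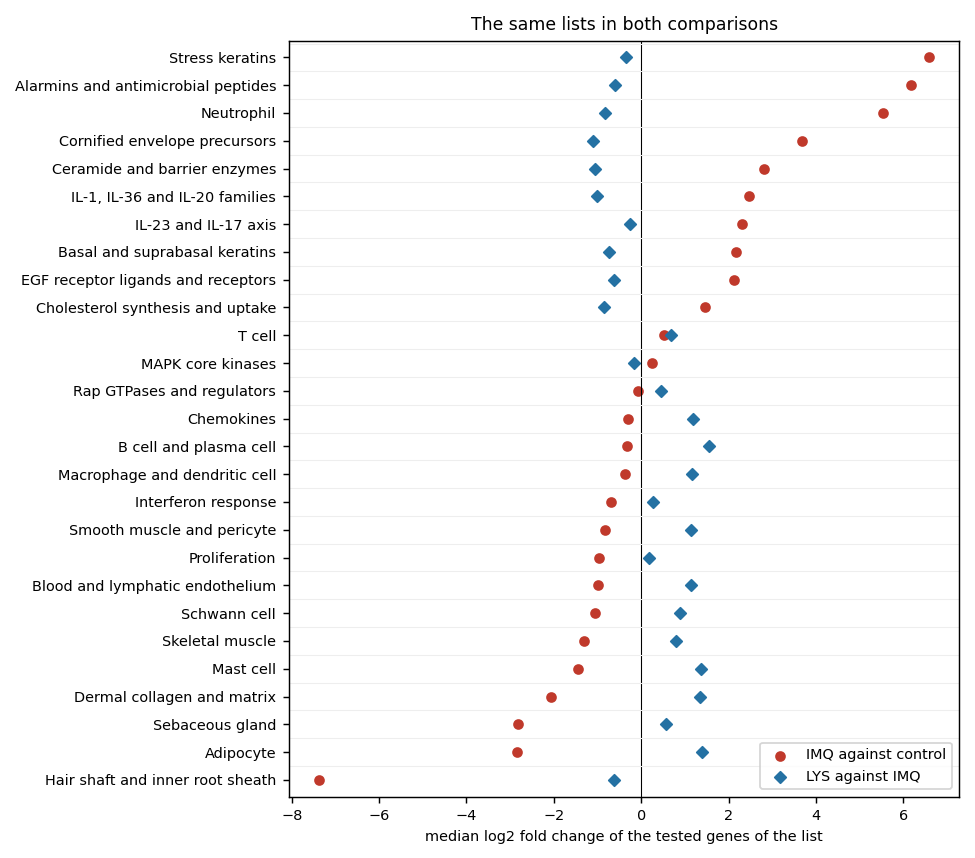
Median log2 fold change of the tested genes of each of the 27 lists, for IMQ against control (red circles) and LYS against IMQ (blue diamonds), ordered by the first. The IMQ libraries are in both comparisons; the blue values run from -1.09 for cornified envelope precursors to 1.54 for B and plasma cells, and hair genes stand at -7.37 in the first comparison.

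Dermal matrix genes lay higher. All 35 tested genes had a higher mean in the LYS group and 25 did not overlap, where 16.8% of all genes did so. The median was 1.35, and DESeq2 called 30 higher (12.8% over all genes). edgeR called 24 higher without LYS 1 (14.9% over all genes) and 28 without IMQ 1 (6.80% over all genes). The list stood at 0.73, -0.15 and -0.58 in the IMQ libraries and at 0.93, 1.37 and 1.72 in the LYS libraries, so IMQ 1 and LYS 1 lay close. Imiquimod alone had lowered 33 (median -2.07). Dcn, the proteoglycan decorin, was at 742, 469 and 369 CPM in IMQ and 868, 1480.1 and 1586 CPM in LYS libraries (1.39, interval 0.56 to 2.21), with LYS 2 and LYS 3 near the control libraries (1527, 1755 and 1338 CPM). Pdgfra, the growth factor receptor that marks fibroblasts, was the highest of the list at 61.3, 33.4 and 25.1 CPM in IMQ and 123, 191 and 171 CPM in LYS libraries (2.08, interval 1.24 to 2.92). Postn, a matrix protein of repair, was at 331, 147 and 127 CPM in IMQ and 397, 595 and 609.5 CPM in LYS libraries (1.47, interval 0.52 to 2.42). The collagens Col1a1 and Col3a1 overlapped because IMQ 1 was high, at 2918, 1172 and 803 CPM in IMQ and 2118, 3656 and 4383 CPM in LYS libraries for Col1a1 (1.12, interval -0.13 to 2.38) and at 3848, 1603 and 1177 CPM in IMQ and 3663, 5419 and 6529.7 CPM in LYS libraries for Col3a1 (1.30, interval 0.13 to 2.47). Eln, the elastin gene, did not overlap (1.197, interval 0.004 to 2.39), and Col12a1 had the smallest difference (0.78, interval 0.21 to 1.34).

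Endothelial genes also lay higher. All 22 had a higher mean, and 13 did not overlap, beside 16.8% of all genes (median 1.14). DESeq2 called 16 higher (12.8% over all genes). edgeR called 19 higher without LYS 1 (14.9% over all genes) and 16 without IMQ 1 (6.80% over all genes). Pecam1, an adhesion molecule of endothelium, was at 113, 73.9 and 63.5 CPM in IMQ and 123, 229 and 238 CPM in LYS libraries (1.30, interval 0.53 to 2.07). LYS 1 lay just above IMQ 1, and LYS 2 and LYS 3 were above the control libraries (136 to 196 CPM). Lyve1, a hyaluronan receptor of lymphatic vessels and some macrophages, was the highest of the list at 7.42, 13.2 and 4.40 CPM in IMQ and 25.8, 45.3 and 41.4 CPM in LYS libraries (2.25, interval 1.28 to 3.21), with a wide gap between the groups. Cdh5 (1.09, interval 0.18 to 2.003) and the lymphatic receptor gene Flt4 (0.97, interval 0.05 to 1.88) overlapped through IMQ 1, and Sox17 had the smallest difference (0.68). Of smooth muscle and pericyte genes, 7 of 14 were higher and 1 lower without overlap, beside 16.8% and 22.1% of all genes (median 1.13). Acta2, smooth muscle actin, was at 68.8, 72.3 and 34.8 CPM in IMQ and 85.4, 128 and 151 CPM in LYS libraries (1.12, interval 0.35 to 1.90), Myh11 differed by 1.21 (interval -0.01 to 2.43) and the actin nucleator Lmod1 by 1.88 (interval 0.47 to 3.28). The pericyte gene Rgs5 overlapped (0.86), and Notch3 was the member lower without overlap (-0.25, interval -0.59 to 0.09, 0.005 without TMM scaling).

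Macrophage and dendritic cell genes were mostly higher. Of 27 tested genes, 16 were higher without overlap and 1 lower, beside 16.8% and 22.1% of all genes, with a median of 1.17. DESeq2 called 16 higher (12.8% over all genes). edgeR called 16 higher and 2 lower without LYS 1 (14.9% and 11.9% over all genes). Without IMQ 1 it called 8 higher and 0 lower (6.80% and 5.03% over all genes). Against control, imiquimod alone had raised 7 and lowered 9 of the 27 (median -0.38). Adgre1, the F4/80 antigen, was at 129, 123 and 91.5 CPM in IMQ and 160.2, 357 and 461 CPM in LYS libraries (1.59, interval 0.68 to 2.49). LYS 1 lay within the control range of 107 to 213 CPM, and LYS 2 and LYS 3 above it. Csf1r, the macrophage growth factor receptor, was at 200.3, 130.2 and 177 CPM in IMQ and 215, 399.6 and 473 CPM in LYS libraries (1.17, interval 0.40 to 1.94). Folr2, named above, was at 0.547, 0.447 and 0.293 CPM in IMQ and 2.03, 2.55 and 5.45 CPM in LYS libraries. In all of these LYS 1 was the LYS library nearest the IMQ group. Arg1, an enzyme that imiquimod raised from 10.7, 5.83 and 9.36 CPM, went the other way, at 169, 222 and 238 CPM in IMQ and 148, 59.7 and 20.8 CPM in LYS libraries (-1.41, interval -2.83 to 0.01), and keratinocytes can express it too. The Langerhans cell marker Cd207 overlapped at 17.9, 20.6 and 28.1 CPM in IMQ and 22.4, 11.7 and 6.95 CPM in LYS libraries (-0.65, interval -1.59 to 0.30).

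Mast cell genes were higher in 9 of 12 without overlap, beside 16.8% of all genes (median 1.36). DESeq2 called 9 higher (12.8% over all genes). edgeR called 9 higher without LYS 1 (14.9% over all genes) and 7 without IMQ 1 (6.80% over all genes). The chymase Mcpt4 was at 31.8, 19.7 and 19.3 CPM in the IMQ libraries and 42.0, 55.3 and 70.8 CPM in the LYS libraries (1.32, interval 0.66 to 1.98). All LYS libraries exceeded all IMQ libraries, and LYS 3 lay inside the control range of 56.4 to 85.2 CPM. Cma1, another chymase (1.24, interval 0.71 to 1.77), the carboxypeptidase Cpa3 (1.66, interval 0.76 to 2.56) and the IgE receptor chain Ms4a2 (2.11, interval 0.996 to 3.22) did not overlap either. The histamine-forming Hdc, which neutrophils also express, overlapped at 61.4, 204 and 192 CPM in IMQ and 132, 97.7 and 34.7 CPM in LYS libraries (-0.74, interval -2.07 to 0.60).

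Among T cell genes, 9 of 22 were higher without overlap and 1 lower, beside 16.8% and 22.1% of all genes (median 0.67). DESeq2 called 5 higher and 1 lower (12.8% and 9.18% over all genes). Cd4 was at 7.30, 0.671 and 2.49 CPM in IMQ and 8.03, 10.7 and 10.3 CPM in LYS libraries (1.51, interval -0.12 to 3.15), where IMQ 1 nearly reached the LYS libraries. Cd3e, a chain of the T cell receptor complex, was at 2.74, 2.61 and 2.42 CPM in IMQ and 4.05, 4.64 and 2.81 CPM in LYS libraries (0.63, interval -0.02 to 1.28). Cd8a (-0.498) and the regulatory factor Foxp3 (0.52) overlapped at under 2 CPM. The cytotoxic Prf1 was the highest of the list (2.02, interval 0.69 to 3.34) and the inhibitory receptor Cd5 the lowest (-0.85, interval -1.53 to -0.17). Of the B and plasma cell genes, 8 of 19 could be tested, and 3 were higher and 1 lower without overlap, beside 16.8% and 22.1% of all genes. DESeq2 called 4 higher and 1 lower (12.8% and 9.18% over all genes). Beside Igkc and Jchain, Igha overlapped at 9.73, 7.90 and 15.5 CPM in IMQ and 15.997, 11.2 and 10.04 CPM in LYS libraries (0.23, interval -0.48 to 0.94). The plasma cell genes Mzb1 and Tnfrsf17 had too few counts to be tested.

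Genes of fat, skeletal muscle and Schwann cells had higher means with wide spread. All 17 tested adipocyte genes had a higher mean and 5 did not overlap, beside 16.8% of all genes (median 1.38, 2.24 without IMQ 1). The hormone gene Adipoq was at 72.8, 28.0 and 20.3 CPM in IMQ and 73.2, 139.7 and 251 CPM in LYS libraries (2.01, interval 0.57 to 3.45), and LYS 1 stood beside IMQ 1. The lipid carrier Fabp4 (1.37, interval 0.41 to 2.34) did not overlap, while Plin1 (1.63, interval -0.18 to 3.45) and Lipe (0.33, interval -0.16 to 0.82) did. Skeletal muscle genes were higher without overlap in 3 of 22, below the share of 16.8% over all genes (median 0.81). Acta1, skeletal actin, was at 1923, 1556 and 734 CPM in IMQ and 1946, 2174 and 2884 CPM in LYS libraries (0.803, interval -0.09 to 1.69), and the values for Myh4 (1.60), Ckm (0.83) and Myh1 (-0.33) had intervals that spanned 0. Of Schwann cell genes, 1 of 11 was higher without overlap, below the share of 16.8% over all genes (median 0.89). Pmp22, a myelin gene, had the highest value of the list (1.27, interval 0.18 to 2.35). It overlapped, as did the myelin gene Mbp (0.01, with a sign that turned under several settings) and the transcription factor genes Sox10 (0.69) and Egr2 (-0.62).

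Sebaceous genes split. Awat1, a wax ester enzyme, was at 1.88, 0.298 and 1.25 CPM in IMQ and 15.7, 1.70 and 0.689 CPM in LYS libraries, high in LYS 1 alone (2.39, interval -0.39 to 5.17). The desaturase gene Scd1 was at 1388, 438 and 352 CPM in IMQ and 1315, 1214 and 1899 CPM in LYS libraries (1.09, interval -0.18 to 2.36), and Mc5r differed by 0.52. Acsbg1, an acyl-CoA synthetase gene, was the lowest, at 405, 466 and 556 CPM in IMQ and 261, 129 and 114 CPM in LYS libraries (-1.45, interval -2.20 to -0.69). The median of the list was 0.57 with all libraries and -0.097 without LYS 1. Of 16 tested genes, 2 were higher and 3 lower without overlap, beside 16.8% and 22.1% of all genes.

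The study followed Rap1 and MAPK signalling, in which the GTPase Rap1 is switched on by exchange factors and off by GTPase-activating proteins and acts on MAPK cascades, among them that of p38. Primer pairs of its quantitative PCR are shown here because they set which gene each assay reads. Each was matched exactly, without mismatch, to GENCODE M21 transcripts (GRCm38). They are written 5′ to 3′ in lower case, forward and then reverse.
MEK3,6 forward: actatcggagacagaaacttcg
MEK3,6 reverse: cactttctctaccaccccatag
p38 forward: aggaattcaatgacgtgtacct
p38 reverse: aggtccctgtgaattatgtcag
Rap1gap forward: ctcccaccctgcttcaccctac
Rap1gap reverse: cgctgttcatccatcctgcttcc
Rap1a forward: agatggcggacactcttctcagg
Rap1a reverse: ctgctggtgctggaggaggag
Rap1b forward: gaacggacaaggcttcgctctg
Rap1b reverse: ccaagtcgcatttattgccaaccag
The pair named MEK3,6 matched Map2k3 (93 bases) and no Map2k6 transcript, and the pair named p38 matched Mapk14 (163 bases). Rap1gap (87 bases) and Rap1b (143 bases) matched the genes of their names. The pair printed as Rap1a matched Rap1gap2 (150 bases) and no transcript of Rap1a.

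For the genes those primers read, the sequencing gave these values. Rap1gap, a GTPase-activating protein, was at 25.4, 32.1 and 27.7 CPM in the IMQ libraries and 18.4, 17.9 and 16.9 CPM in the LYS libraries (-0.61, interval -0.93 to -0.30, edgeR adjusted p = 0.0591). LYS libraries lay close together, below all IMQ libraries and above the control libraries (3.48, 4.30 and 5.07 CPM). Rap1gap2, of the same function, was at 7.11, 5.96 and 6.75 CPM in IMQ and 9.57, 16.6 and 20.8 CPM in LYS libraries (1.32, interval 0.59 to 2.05), higher without overlap. Rap1a itself was at 58.4, 67.5 and 67.9 CPM in IMQ and 64.5, 81.3 and 90.1 CPM in LYS libraries (0.35, interval -0.02 to 0.73), with LYS 1 in the IMQ range, and Rap1b at 193, 232 and 214 CPM in IMQ and 233, 318 and 317 CPM in LYS libraries (0.51, interval 0.10 to 0.92), where LYS 1 lay just above IMQ 2. Over 28 Rap GTPases and regulators, 12 were higher and 7 lower without overlap, beside 16.8% and 22.1% of all genes (median 0.44). DESeq2 called 8 higher and 3 lower, beside 12.8% and 9.18% of all genes. The extremes were Rgl1, an effector and exchange factor for Ral (1.81, interval 0.83 to 2.79), and Rapgef4, a cAMP-activated exchange factor (-1.196, interval -1.94 to -0.45). Its relative Rapgef3 had a higher mean (0.74, interval 0.07 to 1.41). Rap2a, Rap2b, Rapgef2, Rapgef5, Rasgrp3, Sipa1, Rasip1, Radil and Apbb1ip were the other higher members, and Rasgrp1, Sipa1l1, Rassf5, Ralgds and Afdn the other lower ones. Against control, imiquimod alone had raised 7 and lowered 8 of the 28 (median -0.08).

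Of the kinases of the MAPK cascade, Mapk13 lay lowest. This p38 delta kinase was at 365, 569.7 and 635 CPM in IMQ and 282, 203 and 152 CPM in LYS libraries (-1.24, interval -1.91 to -0.57), and imiquimod had raised it from 49.3, 39.0 and 56.7 CPM. Map2k3, which phosphorylates p38, was at 248, 356 and 347 CPM in IMQ and 219, 193 and 154 CPM in LYS libraries (-0.69, interval -1.14 to -0.23), and Mapk14, p38 alpha, at 245, 295 and 269.9 CPM in IMQ and 210.5, 204 and 183 CPM in LYS libraries (-0.37, interval -0.68 to -0.07). These 3 did not overlap. Mapk3, a kinase of the ERK arm, did not overlap either. It was at 288, 366 and 365 CPM in IMQ and 277, 208 and 206 CPM in LYS libraries (-0.497, interval -0.899 to -0.10). Map2k6 (0.26), Mapk8 (0.09, interval -0.28 to 0.47) and Mapk12 (0.61) overlapped. Of 23 tested kinases, 10 were lower without overlap, beside 22.1% of all genes, and 9 had an interval within 0.58 of 0, beside 24% of all genes. The median of -0.16 turned to 0.10 without TMM scaling, a setting that moved the median of all genes from 0.036 to 0.288. Transcript levels say nothing of kinase phosphorylation, which was not measured here.

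The EGF receptor list overlapped in part. Of 10 tested genes, 5 were lower without overlap, beside 22.1% of all genes (median -0.63). DESeq2 called 2 lower, beside 9.18% of all genes. The ligand gene Btc was the lowest, at 20.5, 24.7 and 30.7 CPM in IMQ and 15.3, 5.60 and 11.8 CPM in LYS libraries (-1.16, interval -1.99 to -0.32). Hbegf, which keratinocytes release on injury, overlapped at 111, 169.6 and 126 CPM in IMQ and 148, 98.0 and 54.9 CPM in LYS libraries (-0.38, interval -1.17 to 0.41). Egfr, the receptor itself, had LYS 1 level with the lowest IMQ library, at 98.0, 139 and 108 CPM in IMQ and 97.8, 90.6 and 71.5 CPM in LYS libraries (-0.34, interval -0.75 to 0.06), and Egf had the highest mean difference (0.701).

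**Figure D5:**
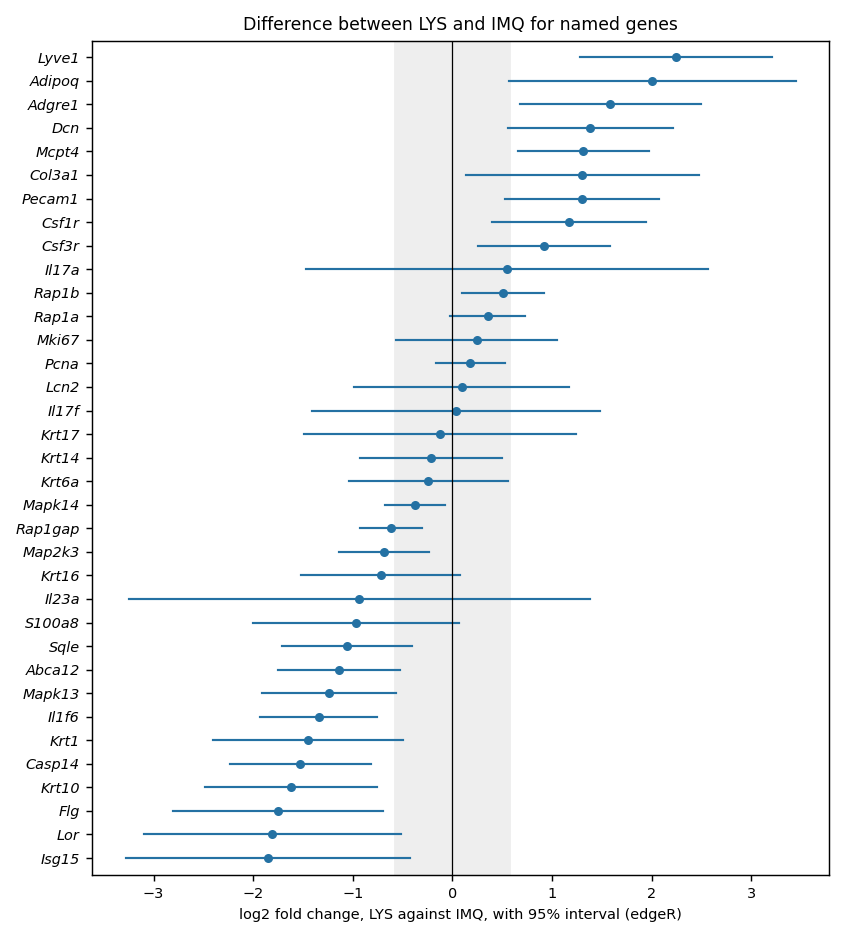
Log2 fold change of LYS against IMQ (points) with its 95% interval (lines, edgeR, 3 libraries per group) for 35 named genes, ordered by value; the grey band marks 0.58 either side of 0. Points of barrier genes lie left of the band, those of dermal, macrophage and mast cell genes right of it, the intervals of Il17a, Il17f, Il23a and Krt17 cross the whole band, and that of Pcna lies inside it.

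Some genes lay at nearly the same level with and without the soup, far from control. The following were chosen after their values had been seen, as the 3 genes in each direction with the largest imiquimod response among those whose interval lay within 0.58 of 0. Neurl3, a ubiquitin ligase gene, was at 7.98, 6.48 and 7.70 CPM in control, 30.7, 35.4 and 44.0 CPM in IMQ and 34.3, 32.8 and 38.5 CPM in LYS libraries, and the log2 fold change was 0.01 (interval -0.38 to 0.39). All LYS libraries lay inside the IMQ range. The long noncoding RNA Malat1 was at 172, 106 and 118 CPM in control, 539, 539.6 and 539.6 CPM in IMQ and 462, 646 and 402 CPM in LYS libraries (-0.04, interval -0.51 to 0.44). Tmem51, a membrane protein gene, was at 10.4, 7.96 and 9.02 CPM in control, 31.1, 42.5 and 37.2 CPM in IMQ and 36.3, 32.9 and 26.9 CPM in LYS libraries (-0.14, interval -0.51 to 0.23). Of the genes that imiquimod lowered, the zinc transporter Slc39a10 was at 412, 272 and 457 CPM in control, 72.9, 83.2 and 75.7 CPM in IMQ and 65.3, 68.0 and 55.5 CPM in LYS libraries (-0.23, interval -0.51 to 0.04). Ptch1, the hedgehog receptor, was at 151, 149.6 and 178 CPM in control, 55.2, 47.1 and 52.6 CPM in IMQ and 42.5, 41.3 and 44.8 CPM in LYS libraries (-0.20, interval -0.48 to 0.07), so the LYS libraries lay slightly below the IMQ libraries and far from control. Clec11a, a growth factor gene, was at 23.0, 25.1 and 23.6 CPM in control, 7.96, 8.05 and 8.14 CPM in IMQ and 8.94, 7.30 and 7.29 CPM in LYS libraries (0.02, interval -0.40 to 0.45). All of these differences lay near 0, and the sign of each turned with some setting.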

How the data were processed

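RNA from back skin was sequenced in 3 control, 3 IMQ and 3 LYS libraries. The submitters' processing notes name the aligner HISAT2, the counter HTSeq 0.13.5 and the build GRCm38. The authors deposited raw read counts per gene together with FPKM values. Counts were analysed as deposited, and the deposited FPKM, which the authors scaled to gene length and library size, served as an alternative with a pseudocount of 1 or 0.1. Whether counting used the strand is not given in the sources used here.

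Groups came from the sample titles. The labels do not say that libraries came from separate mice, while the study's text calls the samples of a group biological duplicates. The p-values measure the spread between libraries, and its technical part was not separated. LYS and IMQ were compared over 6 libraries by the two-sided quasi-likelihood test of edgeR (version 4.0.16, run under R 4.3.3). Low counts were filtered with filterByExpr, libraries were scaled by TMM, and p-values were adjusted by Benjamini-Hochberg over the 15460 genes tested of 29205 in the table. Genes called had an adjusted p under 0.05 and a log2 fold change beyond 0.58. Imiquimod was compared with control in the same way. Intervals are 95% intervals from the same fit. CPM are counts divided by library totals after TMM scaling over 9 libraries.

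Alternatives were DESeq2 1.42.0, limma-voom (limma 3.58.1), all 9 libraries in 1 fit, RLE size factors, no scaling, no filter on low counts, a replicate block, FPKM on the log2 scale, other thresholds and leaving out each library. The scripts were tested on simulated data. The 27 gene lists and the genes named were chosen with earlier results of these data known. Genes named are the 8 highest and 8 lowest without overlap and with a mean of at least 1 CPM, fixed leading genes of each list, and the highest and lowest member of each list. Others, which are counted or named as members without overlap, were chosen after their values were seen. Promoters came from RefSeq (GRCm38.p6) and primers from the study's supplement, matched to GENCODE M21 transcripts. List members not in the table (BC100530, Oas1a, Oas1g, Krt85 and Tnnc2) were not analysed here. Some genes that the rule names are not reported here, and they still count in the lists.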

Additional observations from a re-analysis of the deposited data

How the results depend on the processing

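The count of genes past the thresholds was 0 with limma-voom, RLE size factors, no scaling, either FPKM setting, a larger fold or the adjusted p alone. It was 3392 with DESeq2, 3040 with all 9 libraries in 1 fit and 2419 when only genes without counts were removed. Leaving out 1 library gave 0 to 4262, with 4262 without LYS 1, 1873 without IMQ 1 and 0 otherwise. With the replicate number as a block the count was 0 and the smallest adjusted p 0.220 (edgeR). Same-numbered IMQ and LYS libraries correlated in their deviations from the group means at -0.47, 0.079 and -0.42. Unlike-numbered ones correlated at -0.25 to 0.48. With 3 libraries a group, these values cannot show whether the numbers pair the libraries. The count was already 0 without the block, so the block had no call to remove. An edgeR option for the dispersion estimate, added after seeing the data, gave 0. Imiquimod against control gave 8145 genes, 7372 to 8894 leaving out 1 library and 8044 to 9244 with other settings. Without TMM scaling 25.9% of these calls were higher, beside 47.3% with it, and the median of all genes lay at -0.51. Depth limits genes under about 1 CPM, such as those of hair and B cells, and with 3 libraries a group the spread sets the width of the intervals.

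Of 27 list medians, 16 moved by less than the spread between libraries under every setting. Without TMM scaling the median moved to 1.45 for Chemokines, 0.91 for T cell, 0.10 for MAPK core kinases and 0.69 for Rap GTPases and regulators. With limma on log2(FPKM + 1) the median moved to 0.85 for Chemokines, 0.39 for T cell, 0.87 for B cell and plasma cell, 0.86 for Mast cell, -0.23 for Hair shaft and inner root sheath and 0.090 for MAPK core kinases. With limma on log2(FPKM + 0.1) the median moved to 0.86 for T cell, 0.10 for MAPK core kinases and 0.68 for Rap GTPases and regulators. Leaving out 1 library, medians ran from -1.63 to -0.49 for Basal and suprabasal keratins, 0.93 to 1.27 for Chemokines, -0.097 to 0.71 for Sebaceous gland, 0.98 to 2.24 for Adipocyte, 0.33 to 1.18 for Schwann cell and -0.28 to -0.12 for MAPK core kinases.

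Of 156 named genes tested, 127 kept the sign of their difference under every setting, 75 had an adjusted p under 0.05 with DESeq2, 61 with all 9 libraries, 77 without LYS 1, 50 without IMQ 1 and 0 with the block (edgeR except DESeq2). The sign turned with all 9 libraries to -0.039 in Clec11a, -0.0048 in Ifit1, -0.020 in Il17f, -0.067 in Mbp and -0.060 in Neurl3. Without TMM scaling it turned to 0.027 in Cxcl1, 0.15 in Cxcl10, 0.024 in Krt14, 0.11 in Krt17, 0.037 in Krt5, 0.0027 in Krt6a, 0.22 in Malat1, 0.0055 in Notch3, 0.047 in Ptch1, 0.26 in Rsad2, 0.024 in Slc39a10 and 0.12 in Tmem51. With limma on log2(FPKM + 1) it turned to 0.030 in Cxcl10, 0.012 in Krt14, 0.00085 in Krt5, 0.039 in Krt6a, 0.19 in Malat1, 0.22 in Myh1, 0.0072 in Notch3, 0.039 in Ptch1, 0.085 in Rsad2, 0.020 in Slc39a10 and 0.11 in Tmem51. With limma on log2(FPKM + 0.1) it turned to 0.0011 in Cxcl10, -0.094 in Il17f, 0.012 in Krt14, 0.00082 in Krt5, 0.039 in Krt6a, -0.32 in Krt77, 0.19 in Malat1, 0.23 in Myh1, 0.0075 in Notch3, 0.052 in Ptch1, 0.063 in Rsad2, 0.021 in Slc39a10 and 0.11 in Tmem51. With limma-voom it turned to -0.36 in Il17a, -0.40 in Il17f, -0.83 in Krt77, -0.037 in Mbp and 0.0011 in Myh1. With the replicate block it turned to -0.28 in Il17f, -0.83 in Krt77 and -0.028 in Mbp. With DESeq2 it turned to -0.011 in Mbp and -0.010 in Neurl3. With RLE size factors it turned to -0.011 in Mbp and -0.011 in Neurl3. Leaving out 1 library, the log2 fold change ran from -1.96 to 0.050 in Ccl20, -0.044 to 0.55 in Cdk1, -0.064 to 0.074 in Clec11a, -0.800 to 0.037 in Cxcl1, -0.72 to 0.12 in Cxcl10, -0.28 to 0.82 in Ifit1, -0.33 to 1.10 in Il17a, -0.35 to 0.52 in Il17f, -0.17 to 1.07 in Irf7, -0.87 to 0.28 in Krt17, -0.48 to 0.049 in Krt6a, -2.04 to 1.28 in Krt77, -0.63 to 1.93 in Krt79, -0.19 to 0.67 in Lcn2, -0.26 to 0.091 in Malat1, -0.032 to 0.20 in Mapk8, -0.32 to 0.20 in Mbp, -0.042 to 0.58 in Mki67, -1.34 to 0.23 in Mmp8, -0.75 to 0.32 in Myh1, -0.11 to 0.16 in Neurl3, -0.56 to 0.34 in Rsad2 and -0.12 to 0.53 in Top2a. The cause was not tested.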
